A study of Mus musculus with 3 samples.

Results

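The genes described here move iron into and out of the cell, store it, sense it or release it from heme. They were listed by symbol and comprised 10 of the 24467 genes in the deposited tables: Tfrc, Slc11a2 and Steap3 (uptake), Fth1, Ftl1 and Ncoa4 (storage and its release), Slc40a1 (export), Ireb2 and Aco1 (regulation) and Hmox1 (heme oxygenase). The rule names symbols and uses no expression value, but earlier results of these data were known when the genes were chosen. Polyadenylated RNA was sequenced from 5TGM1.BRE cells, the engraftable bortezomib-resistant form of the mouse myeloma line 5TGM1, which arose in C57BL/KaLwRij mice. Bortezomib inhibits the proteasome, the complex that degrades proteins marked with ubiquitin, and is a myeloma drug. The cells came out of the bone marrow of such mice, grew in IMDM with 20% fetal bovine serum and 10 nM bortezomib, and had been off the drug for 72 h or more when RNA was taken from 10000000 cells a sample. Replicate 1's cell type label omits the bortezomib culture that the labels of replicates 2 and 3 mention, although all 3 have the same kind of title and the same growth protocol. All 3 samples formed 1 group, and no drug-sensitive parental cells were analysed here, so levels and their spread are given, with no comparison of resistant with sensitive cells. Nothing in the labels says that the replicates were separate cultures, so SDs and p-values cover only the spread of these 3 samples and could be technical.

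Cells take up iron mainly as transferrin bound to its receptor on the surface. Iron is freed and reduced in the endosome, crosses into the cytosol, and is then used, stored inside ferritin shells or exported. A pair of iron regulatory proteins, encoded by Aco1 and Ireb2, bind hairpins called iron-responsive elements in messenger RNAs when iron is scarce. Binding near the 5′ end blocks translation, as for both ferritin subunits and the exporter, whereas binding behind the coding sequence protects the transcript from decay, as for the transferrin receptor. The product of Ireb2 is itself removed by the proteasome when iron is plentiful. Dividing cells, myeloma cells among them, need iron to make DNA and for mitochondrial enzymes.

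The 3 libraries held 62303493, 45705994 and 59402218 counts for replicates 1, 2 and 3, and 10016 genes reached 1 CPM, the count divided by the library total and multiplied by 1000000, in all of them. Replicate 3 stood apart: the chi-square per degree of freedom was 65.1 against replicate 1 and 44.4 against replicate 2, and 4.0 between replicates 1 and 2. Its difference from the other libraries followed transcript length. The median log2 fold change, replicate 3 over replicates 1 and 2, was 0.25 for genes with under 2 kb of exon and -0.25 for genes with over 10 kb. Each member is therefore given with the value in replicate 3 beside those in replicates 1 and 2, and with the trend on exon length and GC content removed. Of 9 plasma cell markers, 7 were at 1 CPM or more in all libraries, among them Pou2af1, Xbp1 and Irf4. Tnfrsf17, at 0.582 ± 0.145 CPM, and Derl3, at 0.828 ± 0.213 CPM (SD, n = 3 for each), were not. No erythroid marker of 9 analysed reached that level, with summed levels of 0.385 to 0.394 CPM, and Hbb-bs, Alas2 and Epor were among those at 0. Neutrophil and mast cell markers summed to 0.269 to 0.306 CPM, with none of 8 detected and S100a8, S100a9, Cpa3 and Mcpt4 at 0. Of 10 macrophage markers only Mrc1 was detected, at 29.2 ± 3.23 CPM (SD, n = 3), while Cd163 and Marco were at 0. The macrophage sum, nearly all Mrc1, was 26.3 CPM in replicate 3, against 32.1 and 30.1 CPM in replicates 1 and 2. Most other macrophage markers with counts were highest in replicate 3: Lyz2 had 15 counts there, against 6 and 3 in replicates 1 and 2, C1qa had 9, against 0 and 0, and C1qb had 5, against 0 and 0. Vcam1 had 4 counts in replicate 3, against 0 and 1, and Csf1r had 3, against 0 and 1. The part of such markers in the results was not tested.

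The iron-responsive elements of these genes are shown first, since they tie uptake, storage and export to the same sensors. The spliced coding transcripts of GENCODE M21 (GRCm38) were searched on the sense strand for CNNNNNCAGTGN, in which N is any base. The first C is the bulge, the 5 bases after it form the upper stem, and the last 6 letters are the loop. The 5 bases behind the loop had to pair with the stem, G-T pairs allowed. In each 29-base window the bulge and the loop are in capitals.
Fth1, 5′ UTR, chr19:9982732-9982760, plus strand: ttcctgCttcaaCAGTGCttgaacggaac
Ftl1, 5′ UTR, chr7:45459779-45459807, minus strand: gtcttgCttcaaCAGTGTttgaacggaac
Slc40a1, 5′ UTR, chr1:45925465-45925493, minus strand: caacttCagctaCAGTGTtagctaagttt
Tfrc, 3′ UTR, chr16:32631219-32631247, plus strand: aattatCggaagCAGTGCcttccataatt
Tfrc, 3′ UTR, chr16:32631598-32631626, plus strand: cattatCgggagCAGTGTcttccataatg
Tfrc, 3′ UTR, chr16:32631663-32631691, plus strand: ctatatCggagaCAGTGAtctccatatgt
Tfrc, 3′ UTR, chr16:32631710-32631738, plus strand: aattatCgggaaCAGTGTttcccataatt
Slc11a2, 3′ UTR, 4 of 5 pairs, chr15:100395153-100395181, minus strand: agccatCagagcCAGTGTgtttctatggt

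All 5 stem pairs were found in 4 of the 10 genes: in the 5′ UTR of Fth1, Ftl1 and Slc40a1, and at 4 places in the 3′ UTR of Tfrc. The windows of the ferritin subunits were identical at 26 of 29 bases, and those of Tfrc at 18 to 25 of 29 bases between pairs. The Tfrc loops began 898 to 1389 bases behind the stop codon, within 491 bases of a 3′ UTR of 2461 bases. Slc11a2 had 1 window with 4 of 5 pairs, in the transcript Slc11a2-205. No window with 5 pairs lay in Ireb2, Aco1, Ncoa4, Hmox1 or Steap3, which says only that these letters were absent from the annotated transcripts. Among 21866 coding genes, 0.142% held such a window in a 5′ UTR, 0.59% in a 3′ UTR and 1.34% in any region. With 4 pairs allowed, 3.99% held a window in a 3′ UTR, and a match is a description of letters and not of binding. Outside the set, the erythroid heme synthesis gene Alas2 held a window before the coding sequence, and it had 0 counts in every library. Epas1, Tfr2, Cp, Trf, Hmox2 and Slc39a14 were also searched and held no window with 5 pairs. Epas1 had been listed among transcripts with such an element, so the search can miss elements.

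**Figure D1:**
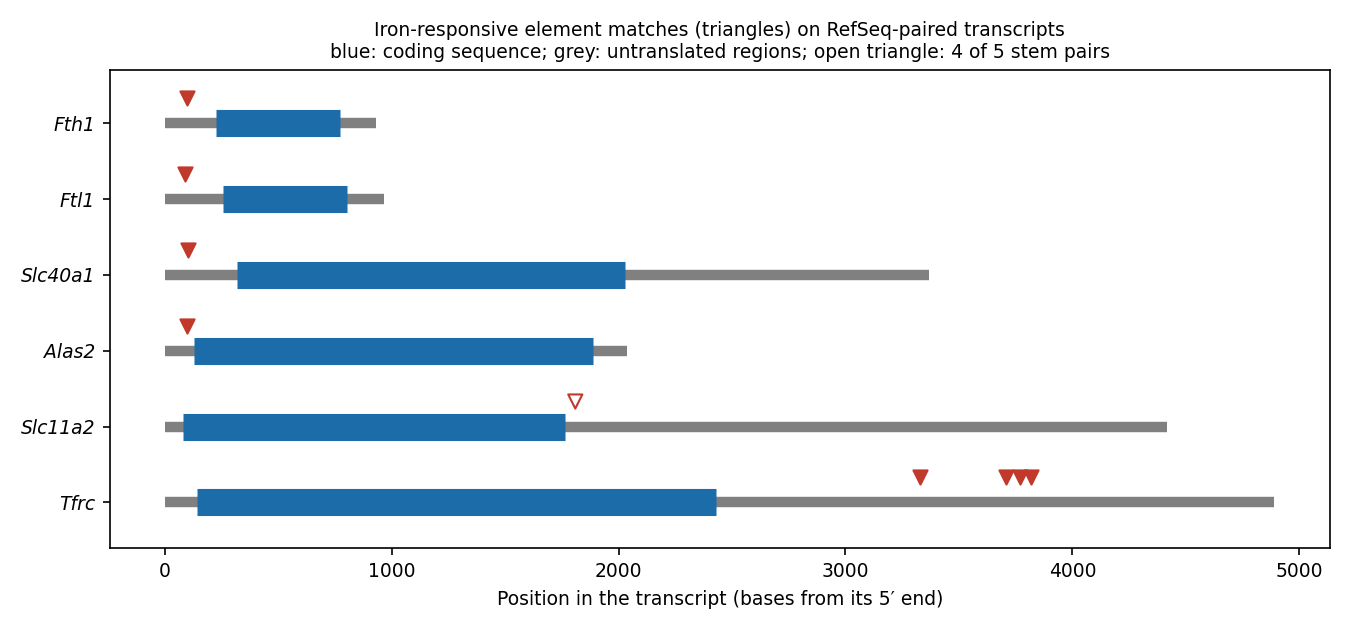
Positions of iron-responsive element windows (triangles) along the RefSeq-paired transcript of each gene, in bases from its 5′ end; blue bars are coding sequence and grey bars untranslated regions. Windows lie before the coding sequence in Fth1, Ftl1, Slc40a1 and Alas2 and behind it in Tfrc (4 windows) and Slc11a2 (1 window with 4 of 5 pairs, open triangle).

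Transferrin receptor and ferritin transcripts were abundant, and those of the exporter were nearly absent. Of the 10 genes, 8 were at 1 CPM or more in all 3 libraries, against 40.9% of all genes in the tables. Slc40a1, the only known cellular iron exporter, and Steap3, an endosomal ferrireductase, were the 2 below that level. Levels between genes were compared as CPM per kilobase of union exon, the length covered by any annotated exon of the gene. On that scale the order was Ftl1 (538), Fth1 (178), Tfrc (128), Hmox1 (26.0), Ireb2 (17.7), Aco1 (15.3), Slc11a2 (5.35) and Ncoa4 (1.08). Only Ireb2 and Aco1, neighbours in this order, overlapped over the 3 libraries. The median detected gene was at 9.13 CPM per kilobase, so 6 of the 8 lay above it and Slc11a2 and Ncoa4 below it.

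The choice of length matters most for Fth1, whose union exon length of 3469 bases far exceeds the 929 bases of its RefSeq-paired transcript. With the RefSeq-paired lengths Fth1 was at 663 CPM per kilobase and Ftl1 at 745. Their ranges over the 3 libraries overlapped, although Ftl1 was the higher within each library. Tfrc was then at 162 CPM per kilobase, and Ireb2 (29.14) and Hmox1 (29.05) could not be ordered. Aco1 (17.9), Slc11a2 (7.70) and Ncoa4 (2.49) kept their places. Coefficients of variation over the 3 libraries ran from 4.57% for Slc11a2 to 24.1% for Ncoa4, and 6 of the 8 exceeded the median of 7.23% among detected genes.

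**Figure D2:**
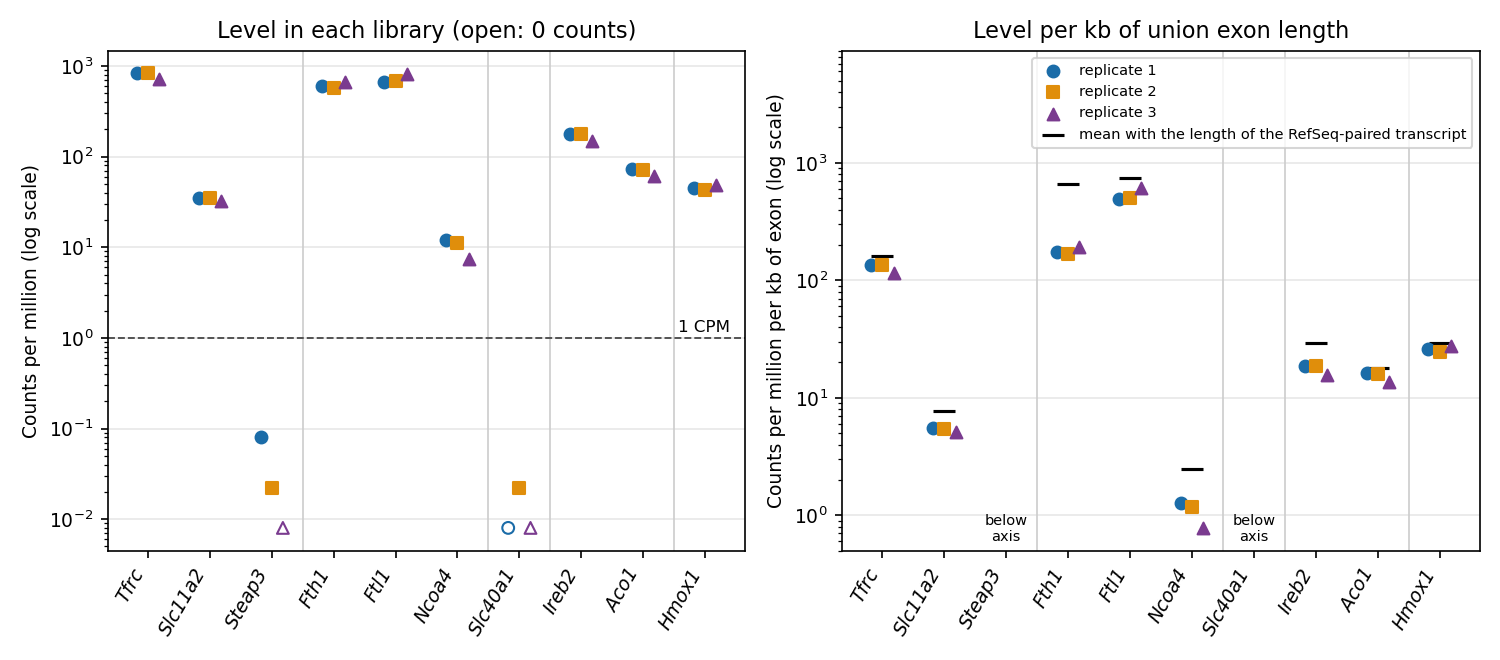
Level of each of the 10 genes in the 3 libraries, as CPM (left, log scale, with the 1 CPM limit dashed and 0 counts as open symbols) and as CPM per kilobase of union exon (right, log scale; black bars use the RefSeq-paired length). Ftl1, Fth1 and Tfrc stand highest, Slc40a1 and Steap3 lie far below 1 CPM, and the black bar lifts Fth1 to 663 CPM per kilobase, near Ftl1.

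Among the import genes the transferrin receptor was abundant and the endosomal transporter lay below the median of detected genes. Tfrc, which encodes the receptor that brings in transferrin-bound iron (chromosome 16, 32608920 to 32632794, plus strand), was at 713 CPM in replicate 3, against 829 and 829 CPM in replicates 1 and 2. Its mean of 790.3 ± 67.4 CPM (SD, n = 3) placed it above 97.5% of the 16120 genes ranked per kilobase. Replicate 3 lay below both others, with a log2 fold change of -0.19 ± 0.05 (SE; adjusted p = 0.000147, edgeR's quasi-likelihood test of replicate 3 against replicates 1 and 2, Benjamini-Hochberg over 11308 genes). With the length trend removed the value was -0.10 (adjusted p = 0.0662), so this call was lost. In bulk RNA, fewer cells of a type and less RNA per cell cannot be told apart. Slc11a2 encodes DMT1, which moves ferrous iron out of the endosome (chromosome 15, 100387898 to 100425072, minus strand). It had 32.2 CPM in replicate 3, against 35.0 and 34.8 CPM in replicates 1 and 2. The log2 fold change of -0.08 ± 0.06 (SE) did not pass in edgeR's test (adjusted p = 0.264), and was 0.01 without the trend. Its exons overlap those of Gm5475 on the opposite strand by 402 bases, and Gm5475 had 1 count in all.

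Steap3 (chromosome 1, 120190757 to 120272705, minus strand), which encodes the ferrireductase known from erythroid endosomes, had 0 counts in replicate 3 and 5 and 1 in replicates 1 and 2. Pooled over libraries that is 0.0358 CPM, with an exact 95% Poisson interval of 0.0132 to 0.0780 CPM that covers counting error only. The related Steap1, Steap2 and Steap4 had 3 counts together, too few for a ratio. Of 7 ferrireductase genes listed, only Cyb561, a cytochrome b561 family member, was detected, at 20.8 ± 0.475 CPM (SD, n = 3). Cyb561a3 was at 0.991 ± 0.119 CPM (SD, n = 3), and was under the limit in replicate 2.

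The other receptors and importers were uneven. Tfr2, which encodes the second transferrin receptor, known mainly from liver and erythroid cells, was at 70.3 CPM in replicate 3, against 73.6 and 69.3 CPM in replicates 1 and 2. Tfrc exceeded Tfr2 per kilobase by 7.10-fold in replicate 3, and by 7.89- and 8.39-fold in replicates 1 and 2. The mean log2 ratio was 2.96 ± 0.12 (SD, n = 3; exact two-sided sign-flip permutation test, p = 0.25, the smallest that 3 libraries allow, 0.281 adjusted over 9 ratios). All ratios below except 1 have these same p-values, so no call is made. Each of them had the same direction in all 3 libraries. Tfrc to Slc11a2 had a mean log2 ratio of 4.58 ± 0.06 (SD, n = 3), or 23.8-fold. Slc39a14 encodes ZIP14, an importer of iron not bound to transferrin. Slc11a2 and Slc39a14 were close per kilobase, at 1.09-fold in replicate 3 and 0.915- and 0.937-fold in replicates 1 and 2, so the direction was not shared (mean log2 ratio -0.03 ± 0.14, SD, n = 3; exact p = 0.75). With RefSeq-paired lengths that log2 ratio was -0.61. Of the 14 genes listed for transferrin uptake and import, 8 were detected. These included Picalm, a clathrin adaptor, at 691 ± 67.2 CPM and Trf, transferrin itself, at 11.9 ± 1.11 CPM (SD, n = 3 for each). Hfe, a partner of the transferrin receptors, and Cd163, the receptor of hemoglobin-haptoglobin complexes, had 0 counts.

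Both ferritin subunits were among the most abundant transcripts per kilobase, while the gene for ferritin's autophagy receptor was low. Fth1 encodes the heavy subunit, which oxidises iron as it enters the shell (chromosome 19, 9980598 to 9985098, plus strand). It had 670.2 CPM in replicate 3, against 598 and 579.7 CPM in replicates 1 and 2. Ftl1 encodes the light subunit, which helps the iron core to form (chromosome 7, 45457944 to 45459884, minus strand). Its level was 824 CPM in replicate 3, against 659.9 and 679 CPM in replicates 1 and 2. Replicate 3 was the highest library for both genes. Genes with under 2 kb of exon, such as Ftl1, had a median log2 fold change of 0.25 there. For genes with 2 to 4 kb, such as Fth1 by its union length, the median was 0.09. Per kilobase, Fth1 lay above 98.4% and Ftl1 above 99.6% of the genes ranked. Together the 2 genes took 0.149% of all counts in replicate 3, and 0.126% in each of replicates 1 and 2.

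Fth1 was higher in replicate 3 by 0.22 ± 0.04 on the log2 scale (SE; edgeR, adjusted p = 4.62e-06), and by 0.16 with the length trend removed (adjusted p = 0.00185). Ftl1 was higher by 0.33 ± 0.04 (SE; edgeR, adjusted p = 1.9e-12). With the trend removed the Ftl1 value was 0.06. The trend was taken on union exon length, which for Fth1 is 3469 bases, against 929 in its RefSeq-paired transcript. What remains for Fth1 may rest on that length, and removal of the trend with the shorter length was not tested. The mean log2 ratio of Fth1 to Ftl1 per kilobase was -1.595 ± 0.08 (SD, n = 3), a 3.02-fold excess of Ftl1. With RefSeq-paired lengths it was -0.16, or 0.893-fold, so the size of this ratio rests on the annotated exons of Fth1. Ftl1 counts are also uncertain for another reason. Of the 75-base windows of its transcript, 84.8% occur in annotated transcripts of 8 other genes on either strand, such as Ftl1-ps1, Gm15590 and Ftl2-ps. The corresponding share was 3.86% for Fth1, all with Gm6977. None of these copies has a row in the tables, and how reads that match several places were counted is not given in the sources used here. The exons of Ftl1 overlap those of Gm10252 on the opposite strand over 355 bases, and whether strand was used in counting is not given either. Genes of the testis-type ferritin family were at or near 0: Fthl17a had 0 counts in replicate 3 and 2 and 0 in replicates 1 and 2, and Fthl17b to Fthl17f had none.

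The summed ferritin level exceeded Tfrc per kilobase by 7.01-fold in replicate 3, and by 4.96- and 5.03-fold in replicates 1 and 2. This gave a mean log2 ratio of 2.48 ± 0.28 (SD, n = 3), and 2.32 without replicate 3. With RefSeq-paired lengths the mean ratio was 8.71-fold, and without any length it was 1.69-fold. The replicate 3 ratio lay outside the other 2 values, and in that library Tfrc was lowest and both ferritin genes were highest. As counted, the log2 fold changes of replicate 3 were -0.19 for Tfrc, 0.22 for Fth1 and 0.33 for Ftl1. With the length and GC trend removed they were -0.10, 0.16 and 0.06. The ratio itself was not computed with that trend removed.

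Ncoa4, which encodes the receptor that carries ferritin to lysosomes for iron release, is found on chromosome 14 (32159865 to 32179855, plus strand). It had 7.34 CPM in replicate 3, against 11.9 and 11.1 CPM in replicates 1 and 2. The difference between replicate 3 and the other libraries was the widest among the 8 genes tested, at -0.62 ± 0.09 on the log2 scale (SE; edgeR, adjusted p = 2.64e-10). With the length trend removed it was -0.44 (adjusted p = 2.52e-05), which still passed. Ncoa4 stood 674-fold below the summed ferritins per kilobase, with a mean log2 ratio of -9.40 ± 0.53 (SD, n = 3), -9.09 without replicate 3. Without any length the ratio was 135-fold. Of its 75-base transcript windows, 41.4% also occur in the processed pseudogene Gm6768, which has no row in the tables. The part of such shared sequence in the low value of Ncoa4 was not tested. Of 7 genes listed for ferritin storage and release, 6 were detected. The iron chaperones Pcbp1 and Pcbp2, which deliver iron to ferritin, were at 629 ± 20.3 and 663 ± 10.52 CPM (SD, n = 3 for each). Herc2, which encodes a ubiquitin ligase that acts on the Ncoa4 protein, was at 38.6 ± 5.08 CPM (SD, n = 3), and Pcbp3 had 0 counts.

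The exporter gene itself was nearly without counts. Slc40a1, which encodes ferroportin (chromosome 1, 45908068 to 45926523, minus strand), had 0 counts in replicate 3 and 0 and 1 in replicates 1 and 2. Over the 167411705 counts of all libraries that is 0.00597 CPM, with an exact 95% Poisson interval of 0.000151 to 0.0333 CPM. Only 1.34% of the genes ranked per kilobase lay below it. Pooled counts of Tfrc and Slc40a1 per kilobase differed 191900-fold, with a counting interval of 34440- to 7580000-fold, since a single Slc40a1 count sets the ratio. With RefSeq-paired lengths the ratio was 90890-fold, with an interval of 16310- to 3590000-fold. The ratio planned beforehand set Slc40a1 to a floor of 3 counts in each library and is a lower bound. It was 21150-fold, and 10020-fold with RefSeq-paired lengths.

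Of 6 listed export genes only Cp was detected, and the others were at or near 0. Cp encodes ceruloplasmin, a copper ferroxidase that works with ferroportin. Cp was at 137 CPM in replicate 3, against 167 and 159 CPM in replicates 1 and 2. The log2 fold change of replicate 3 was -0.23 as counted and -0.06 with the length and GC trend removed. The hephaestin gene Heph had 1 count in replicate 3 and 0 in replicates 1 and 2, and Hephl1 had none. Hamp, which encodes hepcidin, the hormone that removes ferroportin from the surface, had 6 counts in replicate 3 and 1 and 0 in replicates 1 and 2, and Hamp2 had none.

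**Figure D3:**
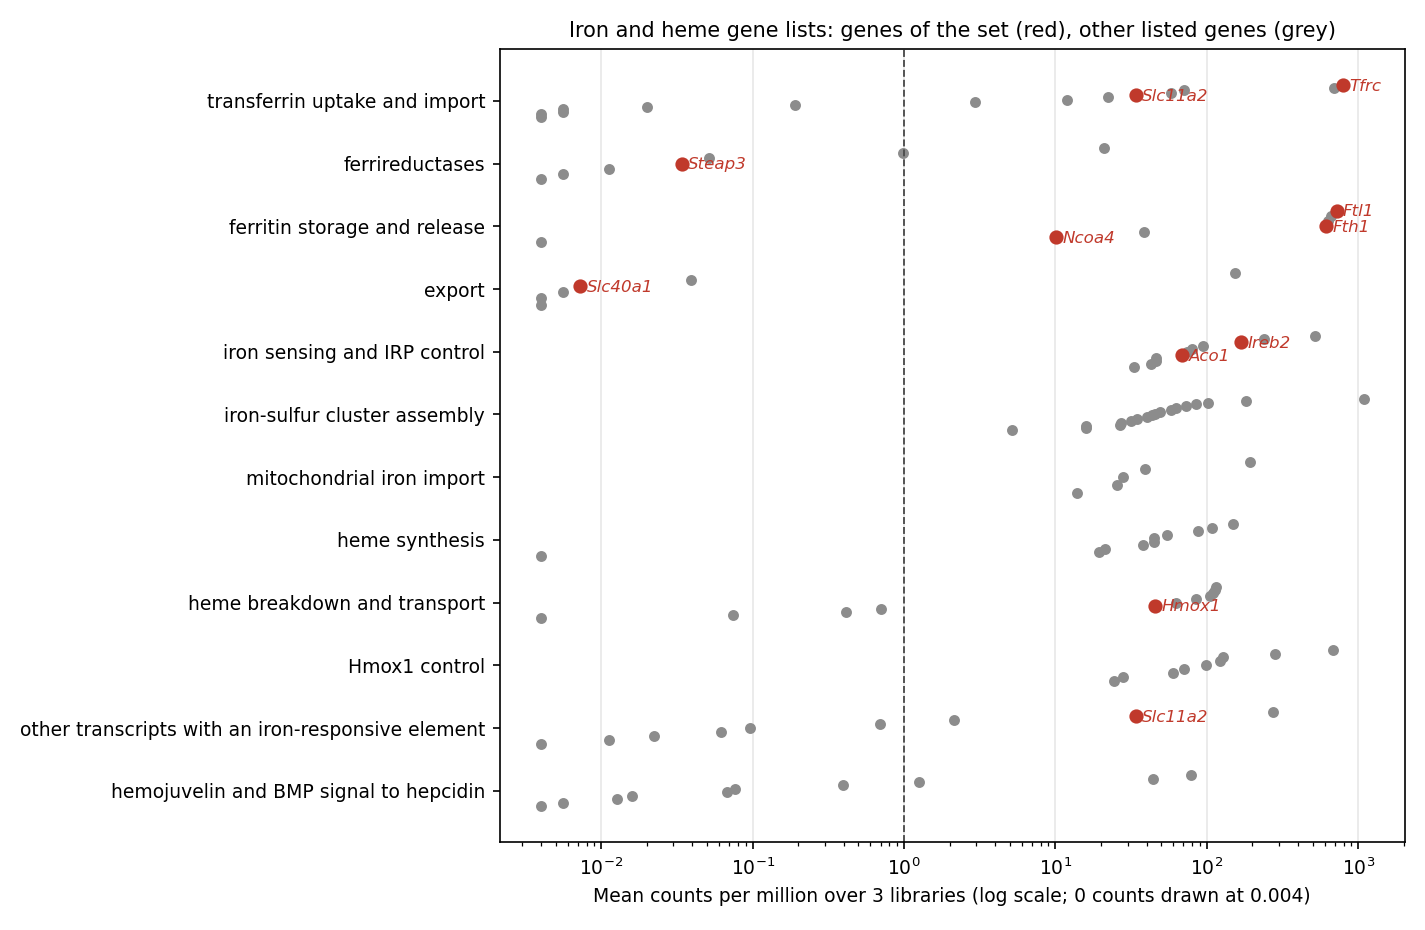
Mean level over the 3 libraries, in CPM on a log scale, of every gene in the iron and heme lists, 1 row per list, with genes at 0 counts drawn at 0.004 and the 1 CPM limit dashed. Members of the set are red and named: Tfrc, Ftl1 and Fth1 lie at the right, while Slc40a1 and Steap3 lie with other export and ferrireductase genes below 0.1 CPM.

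The genes for both iron regulatory proteins were detected in every library. Ireb2 encodes IRP2 (chromosome 9, 54863789 to 54912530, plus strand) and had 149 CPM in replicate 3, against 178 and 178 CPM in replicates 1 and 2. Aco1 encodes IRP1, which acts as the cytosolic aconitase when it holds an iron-sulfur cluster (chromosome 4, 40143081 to 40198338, plus strand). Its level was 61.9 CPM in replicate 3, against 72.9 and 71.5 CPM in replicates 1 and 2. Replicate 3 was the lowest library for both. Genes with 6 to 10 kb of exon, such as Ireb2, had a median log2 fold change of -0.14 in replicate 3. For genes with 4 to 6 kb, such as Aco1, the median in replicate 3 was -0.04. Ireb2 was lower there by a log2 fold change of -0.22 ± 0.04 (SE; edgeR, adjusted p = 4.59e-07) that became -0.07 with the trend removed (adjusted p = 0.196). Aco1 was lower by -0.19 ± 0.04 (SE; edgeR, adjusted p = 2.5e-05), and the value with the trend removed was also -0.19 (adjusted p = 5.56e-05). Per kilobase the mean log2 ratio of Ireb2 to Aco1 was 0.21 ± 0.02 (SD, n = 3), or 1.16-fold, with the same direction in all 3 libraries. It was 1.62-fold with RefSeq-paired lengths and 2.45-fold without any length.

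Transcripts of the machinery around these regulators were present in every library. All 11 genes analysed for iron sensing and control of the regulatory proteins were detected. Fbxl5, the iron-sensing F-box protein that marks IRP2 for the proteasome, was at 32.9 ± 0.88 CPM (SD, n = 3). Its ligase partners Skp1a and Cul1 were at 519 ± 35.7 and 237 ± 26.5 CPM (SD, n = 3 for each). All 18 iron-sulfur cluster genes were detected as well, with the chaperone gene Hspa9 at 1086 ± 67.9 CPM (SD, n = 3). Mitochondrial iron import was represented by all 5 of its listed genes, with Sfxn1 at 192 ± 5.91 CPM (SD, n = 3).

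Heme breakdown genes were expressed at intermediate levels. Hmox1 encodes the inducible heme oxygenase, which splits heme into biliverdin, carbon monoxide and iron (chromosome 8, 75093621 to 75100589, plus strand). It had 48.2 CPM in replicate 3, against 45.4 and 43.1 CPM in replicates 1 and 2. The mean of 45.6 ± 2.54 CPM (SD, n = 3) was above 85.9% of the genes ranked per kilobase. Replicate 3 was higher by 0.15 ± 0.05 on the log2 scale (SE; edgeR, adjusted p = 0.0104). That call ended with library totals in place of scaling (0.12, adjusted p = 0.0625) and with DESeq2 (0.14, adjusted p = 0.226). With the length trend removed the direction turned (-0.06, adjusted p = 0.397).

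Hmox2, the constitutive heme oxygenase gene, was at 90.7 CPM in replicate 3, against 81.7 and 80.8 CPM in replicates 1 and 2. Hmox1 to Hmox2 had a mean log2 ratio of -0.55 ± 0.03 per kilobase (SD, n = 3), a 1.46-fold excess of Hmox2 that had the same direction in every library. The next step, from biliverdin to bilirubin, was represented by Blvrb at 109 ± 12.3 CPM and Blvra at 62.5 ± 5.09 CPM (SD, n = 3 for each). The heme carriers Slc48a1, which moves heme out of lysosomes, and Mfsd7b, also known as Flvcr1, were at 105 ± 0.617 and 114 ± 6.3 CPM (SD, n = 3 for each). Mfsd7c, also known as Flvcr2, had 0 counts. Of 10 heme synthesis genes 9 were detected, with means from 19.5 CPM for Ppox to 149 CPM for Alad. Alas1, the housekeeping enzyme of the first step, was at 37.9 ± 1.53 CPM, and Fech, which inserts the iron, at 44.8 ± 2.16 CPM (SD, n = 3 for each). Every one of the 9 genes listed for control of Hmox1 was detected. Atf4, which encodes a stress-induced transcription factor, was at 685 ± 60.5 CPM (SD, n = 3). Bach1, which encodes the heme-binding repressor of Hmox1, was at 101 CPM in replicate 3, against 132 and 131 CPM in replicates 1 and 2, and was lower there (log2 fold change -0.35 ± 0.04, SE; edgeR, adjusted p = 6.06e-16). With the trend removed it was -0.25 (adjusted p = 1.03e-08). Nfe2l2, which encodes the activator NRF2, was at 100.4 CPM in replicate 3, against 98.3 and 98.9 CPM in replicates 1 and 2, and did not pass (edgeR, adjusted p = 0.238).

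**Figure D4:**
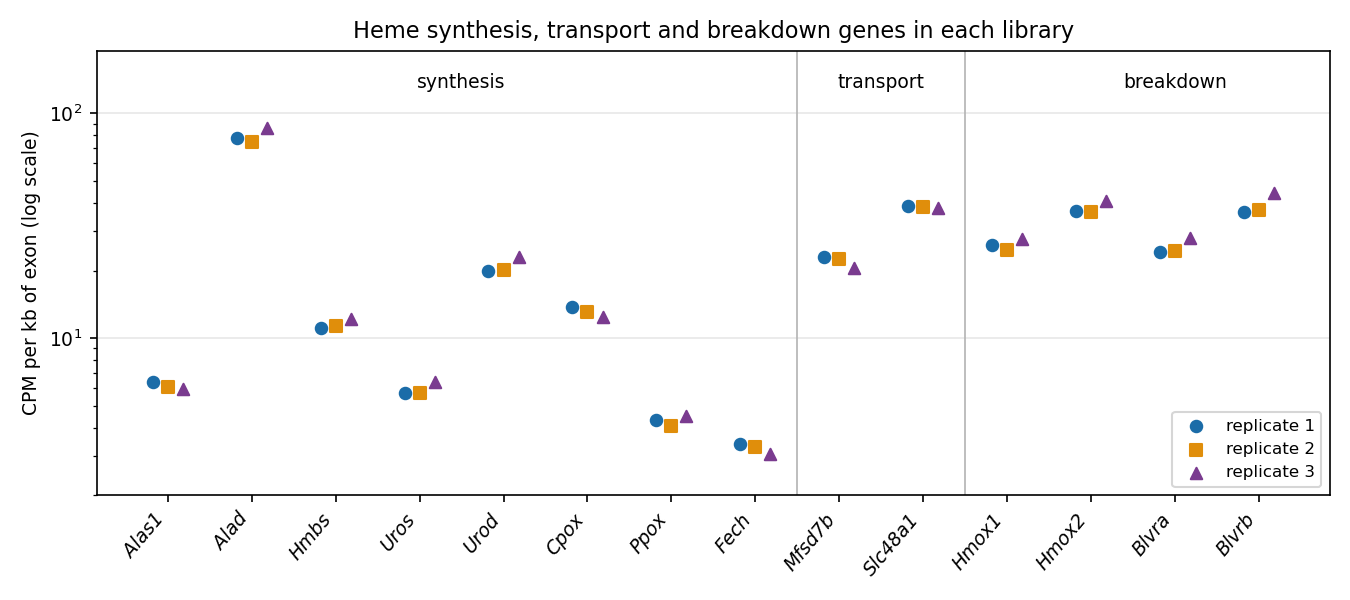
Level of heme synthesis, transport and breakdown genes in each library, in CPM per kilobase of union exon on a log scale; circles, squares and triangles are replicates 1, 2 and 3. Hmox1 lies below Hmox2 in every library. All 4 breakdown genes have their highest value in replicate 3, as counted. With the length and GC trend removed, replicate 3 differed by -0.06 on the log2 scale for Hmox1 and by 0.03 for Hmox2. For Blvra and Blvrb these values were 0.12 and 0.18.

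Across the set, edgeR's test of replicate 3 against replicates 1 and 2 called 3 genes higher (Fth1, Ftl1 and Hmox1) and 4 lower (Tfrc, Ncoa4, Ireb2 and Aco1) among the 8 tested. Among all 11308 genes tested, 24.8% were higher and 26.8% lower, so calls of this kind were common. The median log2 fold change of the 8 was -0.14, beside 0.01 over all genes. With the length trend removed, Fth1 was higher and Ncoa4 and Aco1 were lower, against 15.3% and 18.6% of all genes. DESeq2 called 2 of the 8 higher and 4 lower, against 13.4% and 19.3% of genes with an adjusted p. Ftl1, Hmox1 and Fth1 have 1340, 1751 and 3469 bases of exon, and Tfrc, Ncoa4, Ireb2 and Aco1 have 4496 to 9479 bases. These union lengths entered the trend, although the RefSeq-paired transcript of Fth1 has only 929 bases. Of genes with under 2 kb of exon 58.4% were higher and 1.29% lower, and of genes with over 10 kb 2.68% were higher and 70.0% lower.

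Among the other 105 iron and heme genes analysed, 72 were detected, 9 had 0 counts and 78 were tested. Their median log2 fold change in replicate 3 was 0.10, beside 0.01 over all genes. With the trend removed it was 0.04, beside -0.01 over all genes. For the 18 iron-sulfur cluster genes the median was 0.25, and 0.07 with the trend removed. For the 9 heme synthesis genes tested the medians were 0.15 and 0.09. The 9 genes of transferrin uptake and import that were tested, members included, had medians of -0.08 and 0.02.

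The tests of replicates 1 and 2 had little power, since replicate 3 is then in the remaining pair and widens the error. For Tfrc the SE was 0.18 for replicate 1 and 0.21 for replicate 2, against 0.05 for replicate 3. A lack of calls in replicates 1 and 2 therefore says little about them. Set against the other 2 libraries, edgeR called none of the 8 in replicate 1 and none in replicate 2, with a lowest adjusted p of 0.999. The counts at an unadjusted p under 0.05 were also 0, and so were those of DESeq2. Over all genes, 0.0265% were higher and 0.0531% lower in replicate 1, and 0.0265% in each direction in replicate 2. With the trend removed these shares were 0.0265% and 0.0442% in replicate 1 and 0.0265% each way in replicate 2. DESeq2 called 0.0% higher and 0.00615% lower in both.

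**Figure D5:**
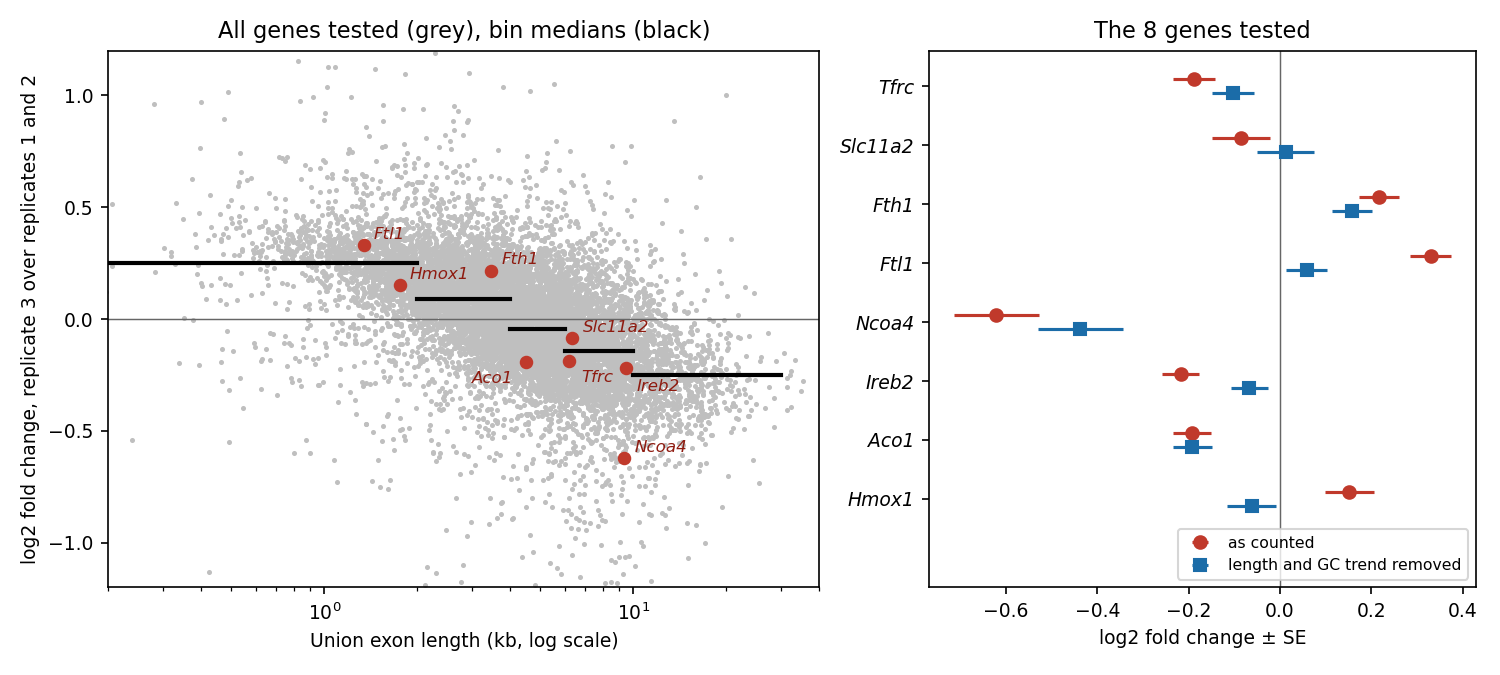
Left: log2 fold change of replicate 3 over replicates 1 and 2 against union exon length (kb, log scale) for all genes tested, with medians of 5 length bins as black lines and the 8 tested genes in red (points beyond the axis limits are not drawn). Right: the same fold change ± SE for the 8 genes as counted (circles) and with the length and GC trend removed (squares). With the trend removed, Ncoa4, Aco1 and Fth1 lie farthest from 0, at -0.44, -0.19 and 0.16. Only the bar of Slc11a2 then reaches 0. The trend uses union exon length, which for Fth1 far exceeds the RefSeq-paired length.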

How the data were processed

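Polyadenylated RNA of 3 samples of 1 group was measured. Each sample has 1 deposited table of raw counts for 24467 gene symbols. The tools named in the submitters' processing notes are bcl2fastq, cutadapt 4.2 and STAR, and the build is mm10. Not given in the sources used here are the counting program, its annotation and its strand setting. GENCODE M21 (GRCm38) gave gene positions, exon lengths and GC content. It matched 23688 symbols as written and 467 by an older name, left 312 unmatched, and gave lengths for 98.72%. The RefSeq-paired length is that of the longest transcript paired with a curated RefSeq mRNA.

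CPM is the count scaled to a library total of 1000000, and a gene was called detected at 1 CPM or more in all libraries. The floor of 3 counts equals 0.0482, 0.0656 and 0.0505 CPM for replicates 1, 2 and 3, and 0.0179 CPM over all. Intervals and floors take each count as independent, so they hold no error beyond counting (PCR copies share a molecule). Within-library ratios were formed per kilobase of union exon and tested over libraries by exact sign-flip permutation, two-sided. Libraries were compared with edgeR 4.0.16 in R 4.3.3 (TMM, filterByExpr, quasi-likelihood test, Benjamini-Hochberg adjustment at 0.05), setting each library in turn against the remaining 2, which leaves 1 residual degree of freedom and assumes that the lone library varies as the others do. SEs were taken as the fold change over the square root of F. This test was also run on simulated counts with a spread equal in all libraries and smaller than that over all 3 libraries of the data. With the 3 libraries taken as 1 group, the common biological coefficient of variation was 9.39%, which includes the departure of replicate 3. The simulated spread was not set beside that between replicates 1 and 2, on which the test of replicate 3 rests. The simulated counts held no difference along length, so that run does not check the p-values given here. The length and GC trend was removed with a loess fit (span 0.3) over all genes. Tried as alternatives were RLE or no scaling, all genes without a count filter, DESeq2 1.42.0, other detection limits, equal depth, pseudocount 0.1 CPM, other lengths and leaving out each replicate. The RefSeq-paired length was chosen after seeing the data. Python 3.11.15, pandas 2.3.3 and SciPy 1.17.1 did the rest.

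The members and lists were chosen with earlier results of these data known. Named are all 10 members, the partners in the ratios and, of each list, the 3 highest genes by CPM and up to 3 at 0 counts, though a few of these are not reported here. Other genes were chosen after their values were seen, among them Bach1, Nfe2l2, Trf, Cyb561a3, Slc48a1, Blvra, Alas1, Fech, Ppox, Fbxl5, Herc2 and the Fthl17 genes. No pairs of groups existed, so libraries were only set against each other.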

Additional observations from a re-analysis of the deposited data

How the results depend on the processing

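The number of genes of the set at 1 CPM or more was 8 under every limit, scaling and depth tried, except 7 at a limit of 10 CPM, and 8 without each replicate. The higher and lower calls of replicate 3 among the 8 tested genes were 1 and 2 with the length and GC trend removed, against 3 and 4 as counted. Over all genes the calls of replicate 3 were 2803 higher and 3031 lower. Removal of the trend left 1728 higher, and DESeq2 called 1235 higher and 1781 lower. For replicate 1, edgeR called 3 higher and 6 lower and DESeq2 called 0 and 1, and for replicate 2 edgeR called 3 and 3 and DESeq2 called 0 and 1. The cause of the lower DESeq2 numbers was not tested. The log2 ratio of Slc11a2 to Slc39a14 turned to 0.016 without replicate 1, with a range of -0.11 to 0.016 when each replicate was left out. The direction of Slc11a2 turned to 0.012 and that of Hmox1 to -0.062 with the trend removed. Leaving out each replicate kept the other log2 ratios between -1.64 and -1.56 for Fth1 to Ftl1, 2.32 and 2.57 for the ferritins to Tfrc, and -9.58 and -9.09 for Ncoa4 to the ferritins. No paired analysis was possible because there is 1 group. Depth limits statements on Slc40a1, Steap3 and the other genes with a few counts, and 3 libraries limit every ratio test to a p of 0.25.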

Other observations

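Some further iron genes are given here, and they were chosen after their values were seen. Among them the values of Fam132b stand on few counts. Fam132b, which encodes erythroferrone, a hormone known to lower hepcidin, had 0.219 CPM in replicate 3, against 0.449 and 0.525 CPM in replicates 1 and 2 (13 counts, against 28 and 24). It was lower in replicate 3 by a log2 fold change of -1.10 ± 0.41 (SE; edgeR, adjusted p = 0.0178), and of -1.23 with the length and GC trend removed (adjusted p = 0.0114). Of 10 genes of the hemojuvelin and BMP route to hepcidin, 3 were detected: Smad5 at 79.1 ± 8.72 CPM, Bmpr1a at 44.4 ± 4.22 CPM and Bmp6 at 1.248 ± 0.128 CPM (SD, n = 3 for each). Bmp2 had 0 counts. Mcoln1, which encodes a lysosomal channel that passes iron, was at 22.3 ± 1.34 CPM (SD, n = 3) and was higher in replicate 3 both as counted (log2 fold change 0.17, edgeR, adjusted p = 0.0238) and with the trend removed (0.31, adjusted p = 4.85e-05).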
